A study of Mus musculus with 6 samples.

Results

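The genes of MHC class I antigen presentation were followed in leukocytes of the irradiated mouse heart. The members were chosen by symbol: H2-K1, H2-D1, B2m, Tap1, Tap2, Tapbp, Psmb8, Psmb9, Psmb10 and Nlrc5, which are 10 of the 32285 genes in the deposited matrices. Cells carrying the leukocyte marker CD45 had been isolated from hearts 28 days after 12 Gy to the heart in 1 fraction, or after a sham procedure, and sequenced on a droplet platform that counts transcript 3′ ends by unique molecular identifiers (UMIs). There were 6 libraries in 3 groups of 2: irradiated C57Bl6J mice labelled STING KO (RT STING KO, named Tmem mice in the titles), irradiated C57Bl6J wild-type mice (RT WT), and sham-treated C57Bl6J wild-type mice (Sham WT). STING relays the sensing of DNA in the cytosol to the induction of type I interferons. The labels give no age or sex, do not describe the STING allele, and do not say whether animals were pooled or whether replicates are different animals. The p-values thus reflect no more than the spread among these 6 libraries, which may be technical. A sham-treated STING KO library was not analysed here, so a difference between genotypes without irradiation could not be measured.

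MHC class I molecules show peptides from inside the cell to CD8 T cells, and natural killer cells sense when these molecules are missing. A heavy chain pairs with beta-2-microglobulin and takes up a peptide that the proteasome has cut and the TAP transporter has carried into the endoplasmic reticulum, where tapasin holds the empty molecule beside the transporter. Interferons raise most genes of this pathway, exchange the catalytic subunits of the proteasome for immunosubunits, and induce NLRC5, the transactivator of class I promoters.

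The pathway is clustered in the genome. In GRCm38, 7 of the members lie on chromosome 17 in the mouse MHC: Tapbp, H2-K1, Psmb9, Tap1, Psmb8, Tap2 and H2-D1, in this order. H2-K1 spans chr17:33996017-34000347 on the minus strand and H2-D1 spans chr17:35262730-35267499 on the plus strand. B2m lies on chromosome 2 (chr2:122147686-122153083, plus strand), and Nlrc5 (chr8:94434356-94527272, plus strand) and Psmb10 (chr8:105935735-105938444, minus strand) lie on chromosome 8. The promoters of the heavy chains, B2m, Tap1 and Psmb9 are shown, chosen among the genes that were higher after irradiation in macrophage-like cells for holding the motifs marked in them. Sequences are from RefSeq (GRCm38.p6), whose promoter table held 8 of the 10 members. Each run is 5′ to 3′ on the strand given and ends at the base before the RefSeq start. The run of Tap1 and Psmb9 is the whole stretch between the RefSeq starts of these 2 genes, which are read away from each other.
H2-K1, chr17:34000348-34000527, minus strand: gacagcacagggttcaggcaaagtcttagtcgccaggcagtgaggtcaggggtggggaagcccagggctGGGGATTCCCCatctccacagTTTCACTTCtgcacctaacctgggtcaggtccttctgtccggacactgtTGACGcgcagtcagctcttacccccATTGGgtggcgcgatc
H2-D1, chr17:35262914-35263093, plus strand: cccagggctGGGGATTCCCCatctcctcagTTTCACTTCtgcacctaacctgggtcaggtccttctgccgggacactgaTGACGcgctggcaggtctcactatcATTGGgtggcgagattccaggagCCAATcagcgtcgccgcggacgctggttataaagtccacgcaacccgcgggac
B2m, chr2:122147507-122147686, plus strand: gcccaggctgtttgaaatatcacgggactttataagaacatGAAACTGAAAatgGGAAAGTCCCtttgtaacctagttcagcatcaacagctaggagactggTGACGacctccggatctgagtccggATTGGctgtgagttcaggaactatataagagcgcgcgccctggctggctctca
Tap1 and Psmb9, chr17:34187331-34187555, plus strand: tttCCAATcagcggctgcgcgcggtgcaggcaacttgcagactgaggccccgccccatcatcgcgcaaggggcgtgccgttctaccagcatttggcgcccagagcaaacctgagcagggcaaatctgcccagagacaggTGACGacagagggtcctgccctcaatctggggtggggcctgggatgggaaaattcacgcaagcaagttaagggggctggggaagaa
Capitals mark matches, on either strand, to an interferon regulatory factor element (GAANNGAAA), the core of the interferon-stimulated response element (GAAA, any 2 bases, GAAA), the kB motif, the cAMP response element core TGACG and the CCAAT box. These letters were chosen with the promoters in view. H2-K1 and H2-D1 held the first of these, kB, TGACG and CCAAT matches, B2m held the response-element core with kB, TGACG and CCAAT, and the stretch of Tap1 and Psmb9 held TGACG and CCAAT. Of 32851 promoters in the table, the 250 bases before the start held these motifs in 6.31%, 2.98%, 5.0%, 17.8% and 33.8% in the order listed. Psmb8 and Psmb10 were also higher after irradiation, and the 250 bases before their starts held no match to any of these 5 motifs. Of these 5, Tapbp held CCAAT alone. A further motif was searched in the same windows, the gamma interferon activation site (GAS, TTCNNNGAA), which 7.02% of the promoters held. Psmb8 had a match to it at -97, and the other members in the table had none. A match describes letters, not binding, and no match says only that the letters are not in that window.

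After filtering, 31279 cells were kept of 45904 barcodes, with 5578 and 5864 in RT STING KO, 3394 and 6014 in RT WT, and 4519 and 5910 in Sham WT libraries. The median depth was 6792 and 6186.5 UMIs per cell in RT STING KO, 6373 and 5510.5 in RT WT, and 4409 and 4588 in Sham WT, so cells of the sham libraries were shallower. Pairs of libraries shared between 4 and 27 cell barcodes. Tmem173, the gene of STING, had 40.4 and 43.1 CPM (UMIs per 1000000 UMIs of the same cells and library) in RT STING KO, 45.5 and 41.8 in RT WT, and 39.9 and 32.9 in Sham WT over all kept cells. It did not separate the genotypes. Where the altered stretch lies away from the counted 3′ end, this level checks nothing. Every direction by genotype therefore rests on the label STING KO. Xist, made from the inactive X chromosome, stood at 598 and 693 CPM in RT STING KO, 335 and 504 in RT WT, and 439 and 386 in Sham WT. The Y-linked gene Ddx3y stood at 55.5 and 47.4, 56.7 and 45.5, and 65.3 and 90.4 CPM in the same order. Both were read in every library. The part of sex in the differences between groups was not tested. Clusters named from markers gave 10 classes with enough cells to fit, the largest being macrophage-like with 10113 cells. Endothelial-like and fibroblast-like cells were present in a CD45 sort, and Ptprc, the gene of CD45, stood between 22.8 and 71.8 CPM in endothelial-like libraries against 327 to 477 in macrophage-like ones.

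Class I genes were read in every class, at levels that depended on the cell type. Levels are given in CPM, as mean ± SD over the 6 libraries. H2-K1, a classical heavy chain, was highest in NK cell-like cells at 3380.4 ± 252 CPM, followed by T cell-like cells at 2608 ± 314 CPM. It was lowest in neutrophil-like cells, at 753 ± 210 CPM, after fibroblast-like cells at 883 ± 345 CPM. Macrophage-like cells came after cycling cells, with 1829 ± 553 CPM, and each class overlapped in range with its neighbour in the order.

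Read as raw UMIs, the 10 members together had 651650 UMIs in RT STING KO, 609346 in RT WT and 406373 in Sham WT libraries over all kept cells. Endothelial-like cells gave 68637 in RT STING KO, 38040 in RT WT and 28311 in Sham WT, and neutrophil-like cells gave 22815 in RT STING KO, 9329 in RT WT and 23536 in Sham WT. Such sums follow the number of cells and their depth as well as the genes. Per cell, H2-K1 averaged 11.9 ± 0.790 UMIs in RT STING KO, 16.4 ± 3.52 in RT WT and 8.58 ± 0.561 in Sham WT libraries (SD, n = 2 each). It was at 9.39 ± 0.0838 UMIs per NK cell-like cell in RT STING KO, 10.2 ± 3.08 in RT WT and 8.25 ± 0.213 in Sham WT, where the groups differed by less than the spread between the RT WT libraries. Neutrophil-like cells, which hold little RNA, had 1.47 ± 0.0412 UMIs of H2-K1 in RT STING KO, 1.72 ± 0.00953 in RT WT and 2.09 ± 0.0296 in Sham WT.

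H2-D1, the other classical heavy chain of this strain, had a different order. NK cell-like (3029 ± 139 CPM), neutrophil-like (2975 ± 264 CPM) and macrophage-like cells (2906 ± 588 CPM) led, so neutrophil-like cells were last for H2-K1 and second for H2-D1. B2m, which encodes the light chain of all class I molecules, was highest in monocyte-like cells at 3114 ± 467 CPM. Fibroblast-like cells had the lowest level of H2-D1 (1211 ± 523 CPM) and of B2m (1431 ± 531 CPM). No neighbours in these orders were separated either.

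Tap1, Psmb8 and Psmb9, which supply peptides, had dendritic cell-like cells on top. Tap1, a subunit of the peptide transporter, stood at 159 ± 40.3 CPM there and at 41.7 ± 18.0 CPM in fibroblast-like cells. Psmb8 and Psmb9, which encode the immunosubunits beta5i and beta1i, stood at 603 ± 99.0 and 313 ± 79.8 CPM in dendritic cell-like cells, and at 90.2 ± 26.7 and 33.8 ± 11.6 CPM in fibroblast-like cells. The highest class exceeded the lowest by 9.25 times for Psmb9, the widest span of the members. For Psmb9 the neutrophil-like class (92.4 ± 12.3 CPM) did not overlap with the fibroblast-like class below it.

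Psmb10, the gene of the immunosubunit beta2i, was highest in monocyte-like cells at 163 ± 23.3 CPM. Neutrophil-like cells, at 25.04 ± 7.98 CPM, lay below every other class without overlap. Tap2, the second transporter subunit, was highest in endothelial-like cells at 119 ± 7.56 CPM, with the other 9 classes between 52.6 and 102 CPM. Tapbp, which encodes tapasin, varied least: its highest mean, 238 ± 47.7 CPM in fibroblast-like cells, was 1.69 times its lowest, 141 ± 13.4 CPM in B cell-like cells. Nlrc5 was highest in T cell-like (49.0 ± 14.3 CPM) and NK cell-like cells (44.0 ± 19.3 CPM), and the other classes had means of 7.51 to 21.4 CPM. The plot of levels by class shows each library.

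**Figure D1:**
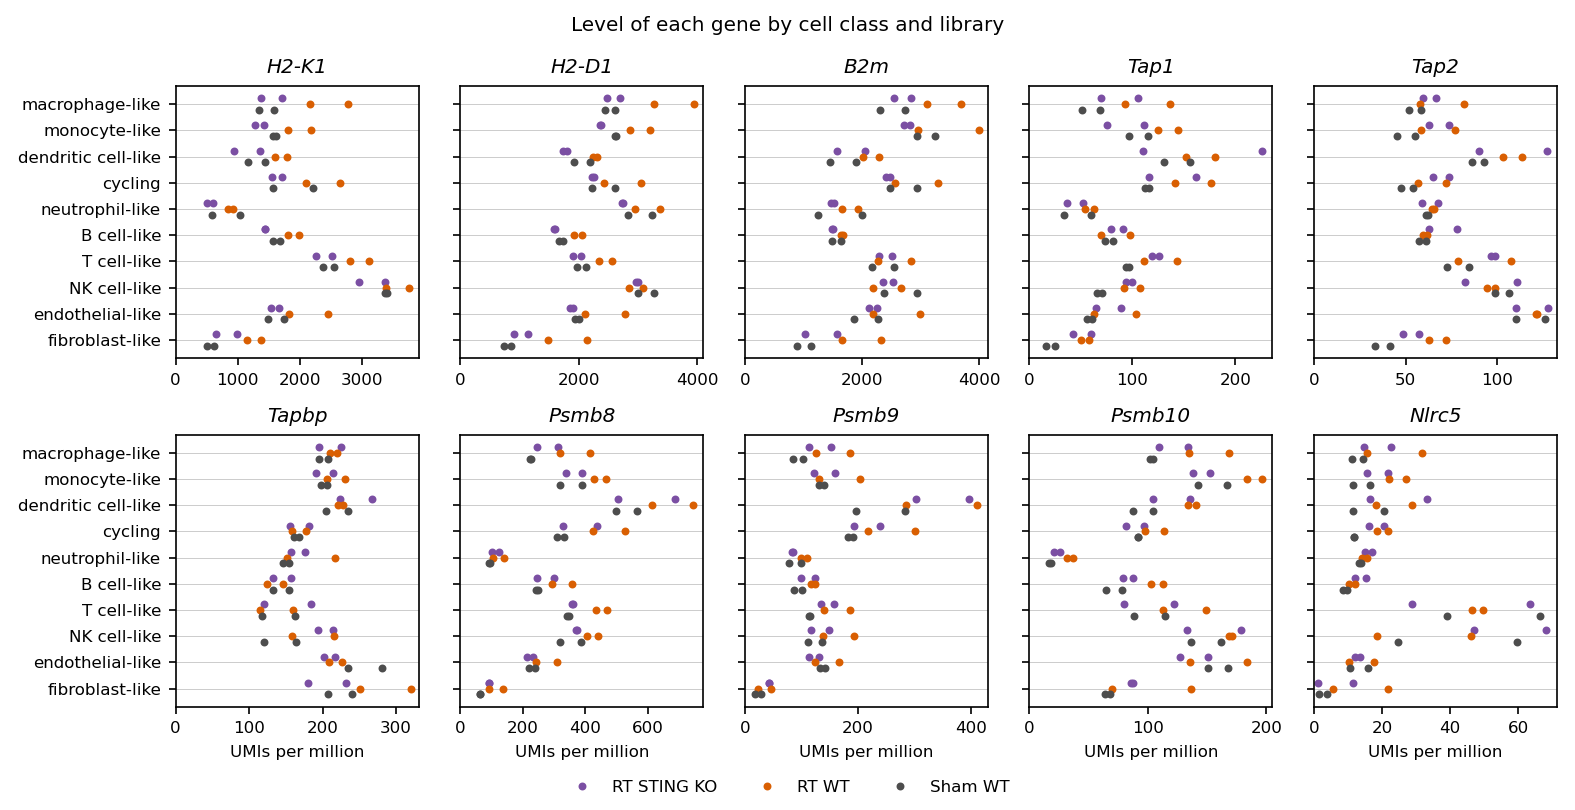
Level of each gene (CPM, horizontal axis from 0) in each cell class, with a point for each library coloured by group. Psmb8 and Psmb9 lie furthest right in dendritic cell-like cells, H2-K1 in NK cell-like and T cell-like cells, and Psmb10 lies furthest left in neutrophil-like cells.

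Radiation and genotype were compared on summed UMIs with edgeR's quasi-likelihood F test, with p adjusted over all genes tested by Benjamini-Hochberg and a call at an adjusted p under 0.05. In macrophage-like cells 7 of the 10 members were higher in RT WT than in Sham WT libraries and 0 were lower. Of the 12255 genes tested there, 8.05% were called in either direction and 4.56% were higher. The median log2 fold change of the members was 0.65, against -0.003 for all genes. In the same cells 3 members, both heavy chains and B2m, were lower in RT STING KO than in RT WT libraries, where 3.78% of genes were called in either direction and 2.42% were lower. The median over the members was -0.45, against -0.004 for all genes. Summed over the group, the 10 members had 238481 UMIs in RT STING KO, 208650 in RT WT and 148772 in Sham WT macrophage-like cells. Fewer transcripts per cell and fewer cells that carry them cannot be told apart in such sums.

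The heavy chains had the smallest adjusted p-values. H2-K1 stood at 1369 and 1717 CPM in RT STING KO, 2782 and 2165 CPM in RT WT, and 1591 and 1352 CPM in Sham WT macrophage-like cells. Both RT WT libraries lay above all others, while RT STING KO and Sham WT overlapped. It was higher after irradiation (log2 fold change 0.76 ± 0.13 SE, adjusted p = 0.00869) and lower in RT STING KO than in RT WT (-0.80 ± 0.13, adjusted p = 0.0145). H2-D1 stood at 2475 and 2688 CPM in RT STING KO, 3939.6 and 3271 CPM in RT WT, and 2611 and 2448 CPM in Sham WT. Its libraries were placed in the same way, with log2 fold changes of 0.52 ± 0.09 after irradiation (adjusted p = 0.00969) and -0.60 ± 0.09 by genotype (adjusted p = 0.0113).

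B2m followed the heavy chains. It stood at 2553 and 2841 CPM in RT STING KO, 3694 and 3115 CPM in RT WT, and 2732 and 2302 CPM in Sham WT. The RT WT libraries again lay above the rest, with log2 fold changes of 0.45 ± 0.10 after irradiation (adjusted p = 0.0272) and -0.46 ± 0.10 by genotype (adjusted p = 0.041). RT STING KO and Sham WT libraries overlapped for all 3 genes. Set side by side, RT STING KO against Sham WT gave log2 fold changes of -0.04 ± 0.13 for H2-K1, -0.08 ± 0.09 for H2-D1 and -0.01 ± 0.10 for B2m, a comparison that shares its libraries with the other comparisons.

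**Figure D2:**
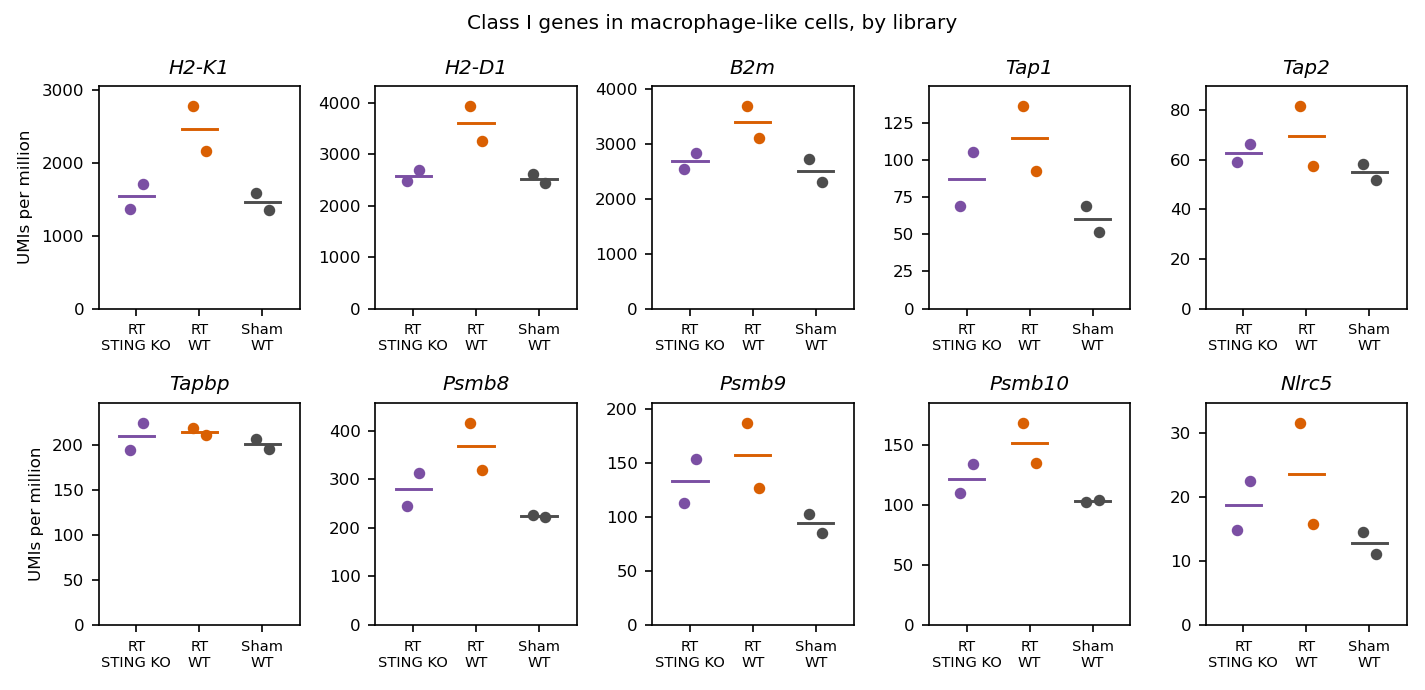
CPM of each gene in macrophage-like cells, from 0, with a point for each library and a line at the mean of each group. The RT WT libraries lie above both other groups for H2-K1, H2-D1, B2m, Psmb8 and Psmb10, and replicate 1 is the higher RT WT library in every panel.

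These are shares of RNA, and per cell the picture by genotype differed. Macrophage-like cells had median depths of 8499 and 8001 UMIs in RT STING KO, 6857 and 5791.5 in RT WT, and 4899 and 5209 in Sham WT libraries. H2-K1 had 12.5 and 14.9 UMIs per cell in RT STING KO, 20.9 and 13.5 in RT WT, and 8.51 and 7.78 in Sham WT libraries. H2-D1 had 22.6 and 23.3 UMIs per cell in RT STING KO, 29.7 and 20.5 in RT WT, and 14.0 and 14.1 in Sham WT libraries. Without scaling to depth, the RT STING KO libraries of H2-D1 fell within the range of RT WT. For H2-K1 the groups overlapped, with RT STING KO replicate 1 below both RT WT libraries. For both genes RT STING KO and RT WT lay above Sham WT. The part of depth in these differences was not tested.

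The transporter and its partner did not move alike. Tap1 stood at 69.0 and 105 CPM in RT STING KO, 136 and 92.9 CPM in RT WT, and 68.7 and 51.5 CPM in Sham WT. RT WT lay above Sham WT and overlapped with RT STING KO, and Tap1 was higher after irradiation (0.94 ± 0.22, adjusted p = 0.029) with no call by genotype (-0.51 ± 0.21, adjusted p = 0.207). Tap2 stood at 59.2 and 66.6 CPM in RT STING KO, 81.7 and 57.6 CPM in RT WT, and 58.4 and 51.8 CPM in Sham WT, so that all 3 groups overlapped. Its log2 fold changes were 0.35 ± 0.15 after irradiation (adjusted p = 0.177) and -0.26 ± 0.14 by genotype (adjusted p = 0.333). Tapbp stood at 195 and 225 CPM in RT STING KO, 219 and 211 CPM in RT WT, and 207 and 195 CPM in Sham WT, with estimates of 0.11 ± 0.09 (adjusted p = 0.487) and -0.15 ± 0.09 (adjusted p = 0.351). The RT WT values of Tapbp lay inside the spread of RT STING KO.

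All 3 immunosubunit genes were higher after irradiation. Psmb8 stood at 246 and 313 CPM in RT STING KO, 417 and 319.6 CPM in RT WT, and 227 and 222 CPM in Sham WT (0.73 ± 0.13 after irradiation, adjusted p = 0.0117). Psmb9 stood at 113 and 154 CPM in RT STING KO, 187 and 127 CPM in RT WT, and 103 and 85.2 CPM in Sham WT (0.75 ± 0.18, adjusted p = 0.0362). Psmb10 stood at 109.8 and 134 CPM in RT STING KO, 169 and 135 CPM in RT WT, and 102 and 104 CPM in Sham WT (0.57 ± 0.12, adjusted p = 0.0228). By genotype the estimates were -0.52 ± 0.13, -0.35 ± 0.18 and -0.44 ± 0.12 in the same order (adjusted p = 0.0651, 0.304 and 0.0828), and none was called. RT STING KO libraries lay above the Sham WT ones for all 3 genes, while for Psmb8 and Psmb10 the second RT WT library lay only just above the higher RT STING KO library.

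Nlrc5, the transactivator, was read sparsely, with 231 and 344 UMIs in RT STING KO, 280 and 174 in RT WT, and 140 and 121 in Sham WT macrophage-like cells. These are 14.8 and 22.5 CPM in RT STING KO, 31.6 and 15.7 CPM in RT WT, and 14.5 and 11.1 CPM in Sham WT. RT WT replicate 1 stood apart from the other 5 libraries. The log2 fold changes were 0.88 ± 0.31 after irradiation (adjusted p = 0.108) and -0.44 ± 0.28 by genotype (adjusted p = 0.408), neither of them a call.

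Many of these calls were lost when 1 library was left out. Such fits also have fewer than the 3 residual degrees of freedom of the full fit. A lost call is therefore not traced to the library left out. For radiation the members called fell to 2 without RT WT replicate 1, to 1 without Sham WT replicate 1 and to 0 without Sham WT replicate 2. In those fits B2m, Tap1, Psmb8, Psmb9 and Psmb10 were not called (adjusted p = 0.0538 to 0.176), H2-K1 was called in 2 of them (0.86, adjusted p = 0.0478, without Sham WT replicate 1, and 0.58, adjusted p = 0.0368, without RT WT replicate 1) and H2-D1 in 1 (0.39, adjusted p = 0.0434, without RT WT replicate 1). H2-K1 missed the threshold without Sham WT replicate 2 (0.67, adjusted p = 0.0706), and H2-D1 without either sham library (0.55 and 0.50, adjusted p = 0.0616 and 0.0591). For genotype 0 members were called without RT STING KO replicate 1 (H2-K1 -0.66, adjusted p = 0.122; H2-D1 -0.55, adjusted p = 0.11; B2m -0.39, adjusted p = 0.287), and B2m also lost its call without Sham WT replicate 1, RT WT replicate 1 or RT STING KO replicate 2 (adjusted p = 0.0503, 0.153 and 0.11). With cells limited to a mitochondrial share of 5%, 0 members were called in either comparison by edgeR. That limit left 2444 macrophage-like cells, against 10113 in the main fit. By edgeR the estimates for H2-K1 were then 0.87 after irradiation (adjusted p = 0.083) and -0.88 by genotype (adjusted p = 0.13).

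Other genes of antigen processing moved less uniformly in macrophage-like cells. Among 10 further genes of peptide supply and loading, 2 were higher after irradiation: Psme2 (0.65 ± 0.12) and Psme1 (0.48 ± 0.11), the subunits of the PA28 proteasome activator. Hspa5, a chaperone of the endoplasmic reticulum, was the 1 gene of this list lower by genotype (-0.59 ± 0.13). The median of the list was 0.26 after irradiation and -0.09 by genotype, against -0.003 and -0.004 for all genes.

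The rest of the proteasome changed by smaller amounts. Of 12 further genes of the 20S core and its assembly, the alpha subunit genes Psma4 (0.45 ± 0.08), Psma5 (0.37 ± 0.09) and Psma3 (0.33 ± 0.08) were higher after irradiation and 0 were called by genotype, with 12 and 5 genes at an unadjusted p under 0.05 (24.7% and 20.9% of all genes) and medians of 0.31 and -0.17. The constitutive catalytic subunits Psmb5, Psmb6 and Psmb7, which the immunosubunits replace, gave 0 calls in either comparison by edgeR, with 3 and 1 genes at that unadjusted p and medians of 0.33 and -0.18.

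Most of the 15 transcription factor genes that act at class I promoters were not called in either comparison. Their medians were 0.06 after irradiation and -0.14 by genotype, against -0.003 and -0.004 for all genes. Of this list, Stat2 (0.68 ± 0.15), which carries interferon signals to the nucleus, was higher after irradiation. Nfyb, a subunit of the CCAAT-binding factor, was lower by genotype (-0.53 ± 0.10). The interferon-stimulated genes moved far more than the class I genes: of 28 tested, 27 were higher after irradiation and 22 were lower by genotype, with medians of 1.48 and -0.90. Their summed level was 1706 and 2373 CPM in RT STING KO, 3749 and 3368 CPM in RT WT, and 1489.6 and 1478 CPM in Sham WT, so that it was high in the libraries in which H2-K1, H2-D1 and B2m were high.

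The immunosubunit share of a subunit pair was taken as the immunosubunit's UMIs over those of both genes. Since the capture of 2 genes can differ, its size is not read and its differences are described without a test. For Psmb8 with Psmb5 it was 67.4% and 71.6% in RT STING KO, 77.5% and 70.8% in RT WT, and 71.1% and 67.7% in Sham WT macrophage-like cells. For Psmb9 with Psmb6 it was 44.1% and 50.2% in RT STING KO, 53.6% and 45.2% in RT WT, and 46.2% and 39.1% in Sham WT. Both pairs overlapped between all groups, in contrast to the level of Psmb8 itself.

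Psmb10 with Psmb7 was at 58.5% and 62.0% in RT STING KO, 68.8% and 65.2% in RT WT, and 63.1% and 62.2% in Sham WT, where the RT WT libraries lay above the rest. In neutrophil-like cells the same share was 37.8% and 43.8% in RT STING KO, 57.1% and 54.9% in RT WT, and 35.3% and 34.4% in Sham WT, also without overlap. Those neutrophil-like values rest on 12 to 66 UMIs of Psmb10 per library.

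**Figure D3:**
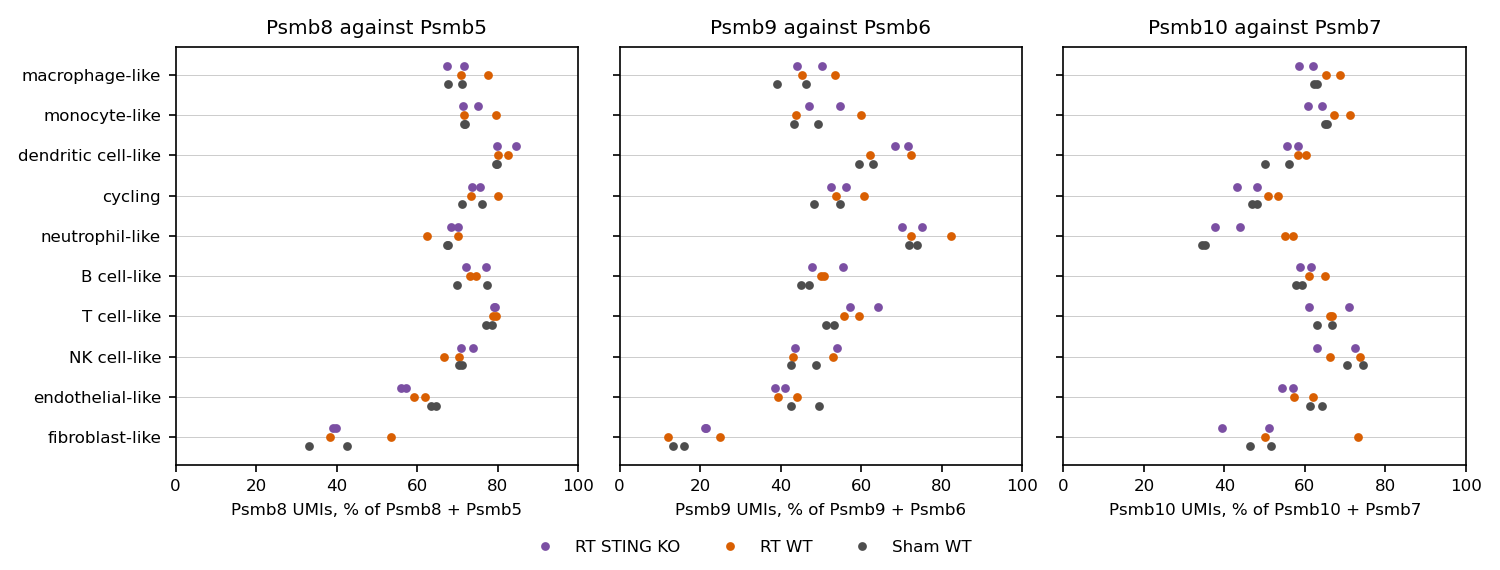
Share of an immunosubunit's UMIs in the sum of immunosubunit and constitutive subunit (percent, horizontal axis from 0 to 100) by cell class, with a point for each library. Classes differ more than groups for Psmb8 and Psmb9, with fibroblast-like cells lowest, and in neutrophil-like cells the RT WT libraries lie to the right for Psmb10.

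The macrophage-like class held 5 clusters, whose shares differed between groups. A cluster led by Ifit3 and Ifit2, both interferon-induced, held 2.76% and 6.69% of the class in RT STING KO, 13.8% and 9.48% in RT WT, and 1.44% and 1.21% in Sham WT libraries. Without this cluster 4 members (H2-K1, H2-D1, B2m and Psmb8) were higher after irradiation, where 5.91% of genes were called and 3.1% were higher. H2-K1 and H2-D1 were lower by genotype, where 3.03% were called and 2.0% were lower. Tap1 then stood at 0.69 (adjusted p = 0.0898), Psmb9 at 0.59 (adjusted p = 0.0892) and Psmb10 at 0.43 (adjusted p = 0.0605) after irradiation, and B2m at -0.42 (adjusted p = 0.0506) by genotype.

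Within single clusters the heavy chains moved as in the class. In the cluster led by Cx3cr1 and Lilra5, 6 members were higher after irradiation (4.94% of genes called, 2.67% higher) and H2-K1, H2-D1 and B2m were lower by genotype (1.58% called, 0.878% lower). H2-K1 stood there at 1467 and 1767 CPM in RT STING KO, 3046 and 2181 CPM in RT WT, and 1550.5 and 1490.4 CPM in Sham WT, with log2 fold changes of 0.78 ± 0.13 (adjusted p = 0.00394) and -0.79 ± 0.13 (adjusted p = 0.00876). In the cluster led by Ccl4 and Tnf, the heavy chains and B2m were higher after irradiation (3.35% of genes called, 1.72% higher) and lower by genotype (1.61% called, 1.21% lower), with H2-K1 at 1254.5 and 1494 CPM in RT STING KO, 2453 and 1875 CPM in RT WT, and 1552 and 1415 CPM in Sham WT. In both clusters the 2 RT WT libraries lay above the other 4.

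In the clusters with genes of resident macrophages the calls were limited to the heavy chains. Both were higher after irradiation and lower by genotype in the cluster led by Vsig4 and Ccl7 (1.53% of genes called and 0.84% higher after irradiation, 1.09% called and 0.82% lower by genotype). In the cluster led by Cd209f and Lyve1 both were higher after irradiation (0.512% of genes called, 0.367% higher) and 0 members were called by genotype by edgeR (0.222%), where 4 had an unadjusted p under 0.05, as had 11.2% of all genes. H2-K1 stood in the Cd209f cluster at 1405 and 1768 CPM in RT STING KO, 2611 and 2407 CPM in RT WT, and 1602 and 1250.4 CPM in Sham WT. In the interferon-led cluster, with 23 and 26 cells in the sham libraries, 0 members were called in either comparison by edgeR (0.306% and 0.226%), with 3 members at an unadjusted p under 0.05 in each, as had 8.73% and 8.65% of all genes. H2-K1 stood there at 1526 and 2329 CPM in RT STING KO, 3541 and 2666 CPM in RT WT, and 2226 and 2035 CPM in Sham WT, the RT WT libraries again on top.

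These cluster counts changed when 1 library was left out. For radiation, the cluster led by Cx3cr1 had 3, 2 and 1 calls without Sham WT replicate 1, Sham WT replicate 2 and RT WT replicate 1, and the cluster led by Ccl4 had 0, 1, 0 and 7 without Sham WT replicate 1, Sham WT replicate 2, RT WT replicate 1 and RT WT replicate 2. The cluster led by Vsig4 had 0 without RT WT replicate 1 or Sham WT replicate 2 and 1 without RT WT replicate 2, and the cluster led by Cd209f had 0 without any library other than Sham WT replicate 1. For genotype, the clusters led by Cx3cr1 and Vsig4 both had 0 without RT STING KO replicate 1, the Vsig4 one had 1 without RT WT replicate 1, the cluster led by Ccl4 had 5 without RT WT replicate 2, the cluster led by Cd209f had 2 without Sham WT replicate 1 or 2, and the interferon-led cluster had 1 without RT STING KO replicate 2.

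**Figure D4:**
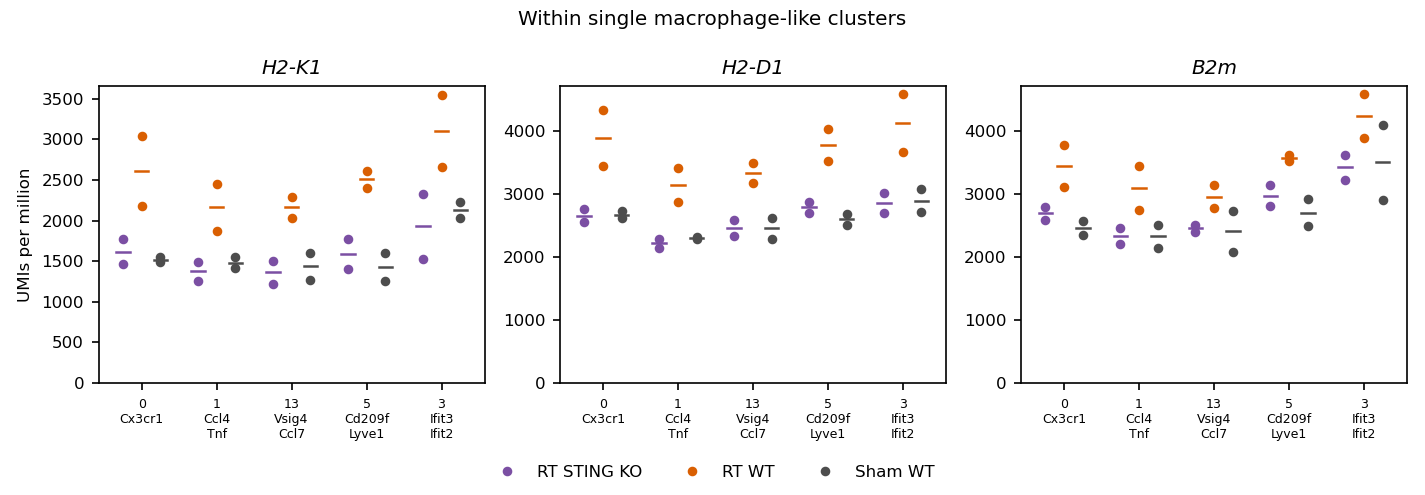
CPM (from 0) of H2-K1, H2-D1 and B2m in the 5 macrophage-like clusters, numbered and with leading genes, with a point for each library and a line at the mean of each group. In all 5 clusters the RT WT libraries lie above both other groups for H2-K1 and H2-D1.

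Markers of other cells were summed in macrophage-like cells, since carried-over RNA could move with the groups. Markers of macrophages (9 of 9 detected) summed to 21421 to 21887 CPM in RT STING KO, 21979 to 22601 CPM in RT WT and 21511 to 22968 CPM in Sham WT. The 8 monocyte markers summed to 59.98 and 85.8 CPM in RT STING KO, 112 and 103 CPM in RT WT, and 46.9 and 43.5 CPM in Sham WT, with none at 0. The 6 B cell markers summed to 38.7 and 44.4 CPM in RT STING KO, 64.0 and 87.6 CPM in RT WT, and 40.6 and 40.1 CPM in Sham WT. The 5 markers of plasmacytoid dendritic cells, among them Bst2, which interferon also induces, summed to 349 and 422 CPM in RT STING KO, 685 and 568 CPM in RT WT, and 300.2 and 296 CPM in Sham WT, with 1 marker at 0. The monocyte, B cell and plasmacytoid dendritic cell lists were high in the same RT WT libraries as the heavy chains, and their part in the result was not tested. Sums of the remaining marker lists are not given here, so these values do not describe carried-over RNA in general.

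Monocyte-like cells shared the difference by genotype. The class joined a cluster led by Cd300e and Ace (746 cells) with a cluster led by Chil3 and Ly6c2 (1129 cells). The part of their mix in the differences between groups was not tested. H2-K1 stood at 1282 and 1421 CPM in RT STING KO, 2182 and 1808 CPM in RT WT, and 1616 and 1574 CPM in Sham WT, and was lower in RT STING KO than in RT WT (-0.63 ± 0.10, adjusted p = 0.00828). H2-D1 stood at 2358 and 2367.5 CPM in RT STING KO, 3204 and 2859.7 CPM in RT WT, and 2635 and 2611 CPM in Sham WT (-0.43 ± 0.08 by genotype, adjusted p = 0.0267). For both genes the 3 groups did not overlap, with RT STING KO lowest and Sham WT between. These were the 2 members called by genotype, where 0.724% of genes were called and 0.537% were lower. After irradiation edgeR called 0 members (0.07% of genes called) and DESeq2 called 0, while 4 had an unadjusted p under 0.05, as had 7.42% of all genes. The genotype count was 0 without RT STING KO replicate 1 and with only the 4 libraries of the comparison, and 1 without RT STING KO replicate 2, without Sham WT replicate 1 or without Sham WT replicate 2, and the radiation count was 1 without RT WT replicate 2.

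No member was called by edgeR in the other 8 classes. The share of all genes called there was 0% for radiation in neutrophil-like and dendritic cell-like cells, 0.0226% in B cell-like, 0.0146% in T cell-like, 0.13% in NK cell-like, 0.268% in cycling, 3.6% in endothelial-like and 0.0118% in fibroblast-like cells. For genotype it was 0.227% in neutrophil-like, 0.111% in dendritic cell-like, 0.317% in B cell-like, 0.0439% in T cell-like, 0.961% in NK cell-like, 0.12% in cycling, 0.0356% in endothelial-like and 0.0588% in fibroblast-like cells. Between 0 and 7 members per class had an unadjusted p under 0.05 for radiation and between 0 and 5 for genotype, where 5.5% to 23.7% and 6.97% to 17.7% of all genes had one. DESeq2 called up to 2 members per class in either comparison, and 0% to 2.36% of all genes with a UMI for radiation and 0.0265% to 0.386% for genotype. With 1 library left out, edgeR called some members in endothelial-like, fibroblast-like and B cell-like cells in both comparisons. It then also called some in NK cell-like and dendritic cell-like cells for genotype. Such fits leave 1 library in a group, and their share of all genes called is not given here. Their calls are therefore not read as a result about the members.

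Estimates in these classes still ran in 1 direction for H2-K1. Its log2 fold change by genotype was below 0 in each of the 10 classes, between -0.80 and -0.32, and its change after irradiation was above 0 in each, between 0.11 in neutrophil-like and 1.14 in fibroblast-like cells. The classes come from the same libraries, so these signs are not independent of each other. Not every member ran this way. In NK cell-like cells H2-D1 stood at 3075 and 2852 CPM in RT WT, and at 3270 and 2999 CPM in Sham WT. In fibroblast-like cells, with 30 to 120 cells per library, H2-K1 stood at 649.6 and 988 CPM in RT STING KO, 1376 and 1158 CPM in RT WT, and 623 and 503 CPM in Sham WT (1.14 ± 0.20 after irradiation, adjusted p = 0.181). H2-D1 stood there at 907 and 1146 CPM in RT STING KO, 2135 and 1477 CPM in RT WT, and 858 and 740.2 CPM in Sham WT (1.15 ± 0.18, adjusted p = 0.181). The RT WT libraries were above the others, at a depth where the test called 0.0118% of genes. Nlrc5 did not pass the filter on low counts in this class.

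In NK cell-like cells, where H2-K1 was most abundant, it stood at 2962 and 3380.2 CPM in RT STING KO, 3757 and 3398 CPM in RT WT, and 3376 and 3409 CPM in Sham WT. The RT WT and Sham WT libraries overlapped, and the log2 fold change after irradiation was 0.13. Psmb10 in neutrophil-like cells stood at 20.8 and 26.3 CPM in RT STING KO, 31.4 and 36.9 CPM in RT WT, and 16.7 and 18.1 CPM in Sham WT (0.90 after irradiation). That was the largest estimate among the members in neutrophil-like cells, and it was not called.

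**Figure D5:**
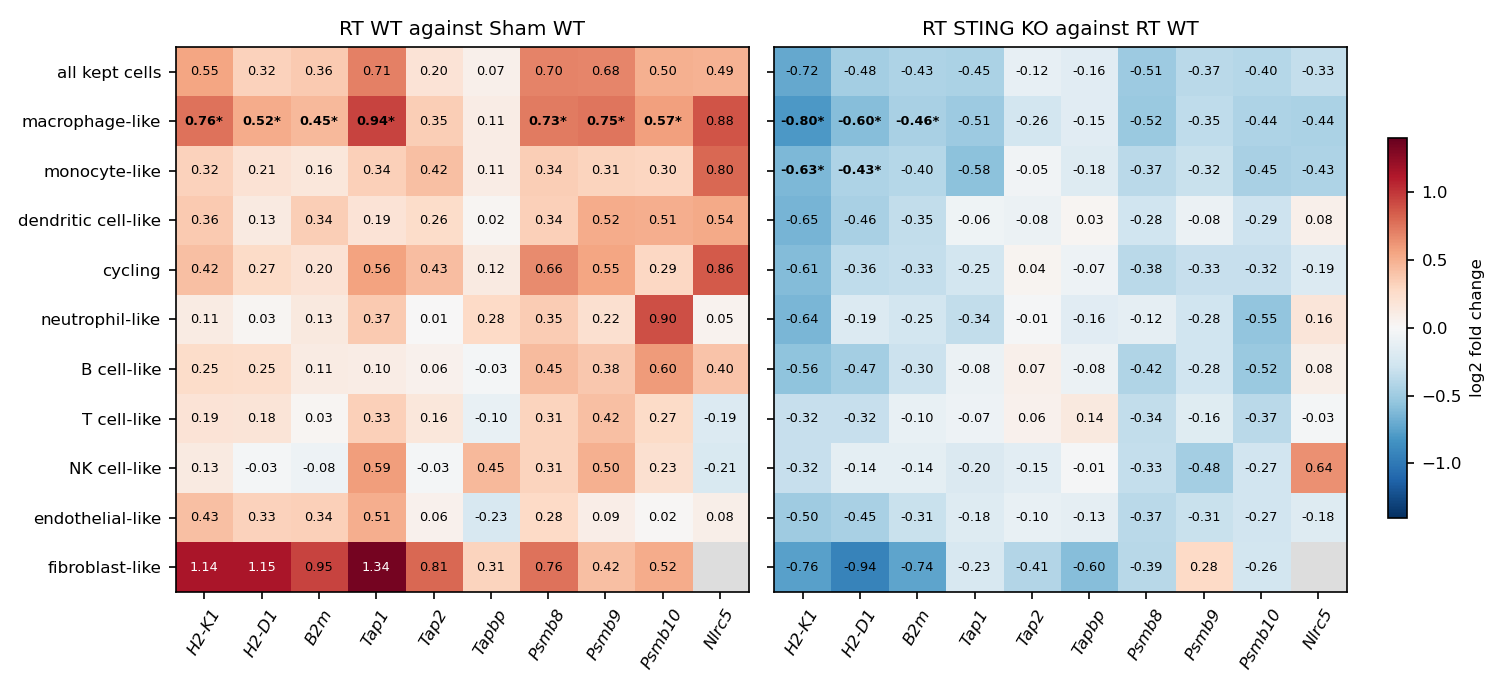
Log2 fold change of each gene over all kept cells and in each class, for RT WT against Sham WT (left) and RT STING KO against RT WT (right), with red above 0, blue below 0, an asterisk at an adjusted p under 0.05 and grey where a gene was not tested. Asterisks stand in the macrophage-like row for 7 and 3 genes and in the monocyte-like row for H2-K1 and H2-D1 by genotype.

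Whether the macrophage-like change after irradiation differed from that of another class was tested as an interaction for 6 classes. The change of H2-K1 was larger by 0.64 ± 0.16 than in NK cell-like cells (adjusted p = 0.00926) and by 0.42 ± 0.10 than in monocyte-like cells (adjusted p = 0.033), and that of H2-D1 by 0.55 ± 0.16 than in NK cell-like cells (adjusted p = 0.0454). The change of Tap1 was larger by 0.77 ± 0.20 than in B cell-like cells (adjusted p = 0.0457) and that of Psmb9 by 0.67 ± 0.14 than in endothelial-like cells (adjusted p = 0.0379). The share of all genes called in these tests was 0.877% for NK cell-like, 0.806% for monocyte-like, 1.12% for B cell-like and 1.87% for endothelial-like cells. Against T cell-like (0.875%) and neutrophil-like cells (1.19%) 0 members were called by edgeR, where 4 members had an unadjusted p under 0.05 in each, as had 7.55% and 7.71% of all genes. The NK cell-like count was 0 without RT WT replicate 1 or Sham WT replicate 2 and 1 without Sham WT replicate 1, the B cell-like count was 0 without either Sham WT or either RT STING KO library, and the monocyte-like and endothelial-like counts were 0 without any library other than RT WT replicate 2. Without RT WT replicate 2 there were 2 calls against B cell-like, 3 against monocyte-like, 1 against T cell-like and 3 against neutrophil-like cells.

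For genotype 0 members differed between macrophage-like cells and any of the 6 classes by edgeR, with 0 to 4 members at an unadjusted p under 0.05, as had 5.72% to 9.78% of all genes. The share of all genes called was 0.428% against B cell-like, 0.418% against NK cell-like, 0.239% against T cell-like, 0.479% against neutrophil-like, and 0% against monocyte-like and endothelial-like cells. A call by genotype in macrophage-like and monocyte-like cells alone is therefore not shown to differ from the other classes. Without RT WT replicate 2 there were 2 calls for genotype against neutrophil-like cells.

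Over all kept cells 0 members were called by edgeR in either comparison. There 0.0127% of 15748 genes were called for radiation and 0.0191% for genotype. H2-K1 stood at 1311 and 1558 CPM in RT STING KO, 2360.2 and 1939 CPM in RT WT, and 1655 and 1357 CPM in Sham WT (0.55 ± 0.14, adjusted p = 0.114, and -0.72 ± 0.14, adjusted p = 0.245). The RT WT libraries lay above both other groups, as in macrophage-like cells. An unadjusted p under 0.05 was reached by 7 members for radiation and 5 for genotype, and by 22.8% and 14.7% of all genes. DESeq2 called 4 and 2 members, and 4.57% and 1.12% of the 23744 genes with a UMI.

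Across cell types and libraries most members varied together. Over the 60 sums of 10 classes and 6 libraries, the correlation of log2(CPM + 1) of a member with the mean of the standardized members was highest for Psmb8 (r = 0.88) and Tap1 (r = 0.85), and lowest for Tapbp (r = 0.14). The 45 pairs of members had a median r of 0.51, from -0.18 for H2-K1 with Tapbp to 0.90 for Tap1 with Psmb8. These sums share libraries, depth and cell types, so the values are descriptions. By the same measure the 5 genes most like the members' mean were Crybg1 (0.84), Psme1 (0.83), Cfl1 (0.81), Cox5a (0.80) and Psme2 (0.78).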

How the data were processed

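The deposited matrices hold UMI counts per gene and cell barcode, made by the authors with Cell Ranger 5.0.0 on mm10, per the file headers and the submitters' processing notes, which also name Seurat without its role. The matrices were analysed as deposited. Cells with at least 200 detected genes and at most 10% mitochondrial UMIs were kept, which left out 23.2% to 33.4% of barcodes per library for the mitochondrial limit. Between 98 and 321 barcodes per library were removed as doublets at 0.8% per 1000 cells, since the automatic threshold of the caller marked 0 to 3. Cells were clustered with scanpy 1.11.5 (Python 3.11.15; 2000 variable genes without the pathway's genes, 30 components, 15 neighbours, Leiden resolution 1). A cluster was named where at least 3 markers of a type were enriched by 1.5 times and found in 10% of its cells. Thresholds for mixed clusters were set after the clusters had been seen, and 15.6% to 20.9% of cells per library lay in mixed or unnamed clusters, which enter only the sums over all kept cells.

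UMIs were summed per library and class with at least 20 cells in each library, and tested in edgeR 4.0.16 (R 4.3.3; filterByExpr, TMM, quasi-likelihood F test, Benjamini-Hochberg over all genes tested). All 6 libraries entered each fit and shared the estimate of spread. Differences between classes were fitted with library as a block. For values without a fit no p is given, since exact permutation of 2 against 2 libraries gives at least p = 0.333 (two-sided). The alternatives were DESeq2 1.42.0, RLE scaling, no filter, other cell filters and clusterings, a replicate block and leaving out each library. The fitting code was tested on simulated counts for RT WT against Sham WT. Changes of 0.75 in log2 were recovered for 68.4% of changed genes in macrophage-like cells. The figure was 23.2% over all kept cells and 15.2% in B cell-like cells, so 0 calls there can miss changes of this size. Changes of 1.5 were recovered for 84.8%, 60% and 86.7% in the same order. The genes changed by 0.75 and by 1.5 numbered 98 and 99, 99 and 100, and 99 and 98. False calls numbered 15, 11 and 10. In each case they made up a larger share of the calls than the threshold of 0.05.

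Total deposited UMIs per library were 59446833 and 59675213 in RT STING KO, 32967187 and 58813701 in RT WT, and 31650962 and 47017054 in Sham WT. No 2 libraries of a group agreed within counting noise. Over all kept cells the chi-square per degree of freedom between them was 34.5 in RT STING KO, 42.8 in RT WT and 74.5 in Sham WT. In macrophage-like cells it was 6.31, 8.70 and 7.23 in the same order. The first set also takes in differences in the make-up of cell types. Gene positions are from GENCODE vM21, in which Tap1 and Psmb9 overlap on opposite strands and Tapbp and Zbtb22 overlap on the same strand, so reads in those stretches can be ambiguous. Of 1323 windows of 91 bases in the last 500 bases of H2-K1 transcripts, 1 was shared with H2-D1, H2-Q1, H2-Q6 and H2-Q7. Sequence upstream of these was not compared. The members and gene lists were chosen with earlier results of these data known. The genes named are the members, the genes of the other lists that passed the test, and the 5 genes most like the members' mean. Of the transcription factor list, 1 gene is not reported here.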

Additional observations from a re-analysis of the deposited data

Results flagged for a closer look

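In 5 cases the change after irradiation in macrophage-like cells differed from that in another class by the test of the difference itself, each as a difference of log2 fold changes. Tap1 differed from B cell-like cells by 0.77 ± 0.20 (edgeR, adjusted p = 0.0457), Psmb9 from endothelial-like cells by 0.67 ± 0.14 (edgeR, adjusted p = 0.0379) and H2-K1 from monocyte-like cells by 0.42 ± 0.10 (edgeR, adjusted p = 0.033). Against NK cell-like cells H2-K1 differed by 0.64 ± 0.16 (edgeR, adjusted p = 0.00926) and H2-D1 by 0.55 ± 0.16 (edgeR, adjusted p = 0.0454). The RT STING KO libraries enter these fits only through the shared spread. Groups of 2 libraries are too small for a test of single outlying libraries.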

How the results depend on the processing

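The limits lie in the 2 libraries of each group. The fits that leave out 1 library have no share of all genes called beside them. Their counts show only how the calls change when 1 library is left out, which also leaves fewer residual degrees of freedom. For the count of members called after irradiation, leaving out 1 library at a time gave 0 to 9 in macrophage-like, 1 to 8, 0 to 7, 0 to 3, 0 to 2 and 0 to 0 in its clusters led by Cx3cr1, Ccl4, Vsig4, Cd209f and Ifit3, 0 to 1 in monocyte-like and B cell-like, 0 to 4 in endothelial-like, 0 to 3 in fibroblast-like cells, and 0 in the others. For genotype it gave 0 to 4 in macrophage-like, 0 to 4, 2 to 5, 0 to 3, 0 to 2 and 0 to 1 in the same clusters, 0 to 3 in monocyte-like, 0 to 5 in B cell-like, 0 to 2 in endothelial-like, 0 to 1 in fibroblast-like, dendritic cell-like and NK cell-like cells, and 0 in the others. The interaction counts ranged over 0 to 2 for B cell-like, 0 to 3 for NK cell-like, monocyte-like and neutrophil-like, and 0 to 1 for T cell-like and endothelial-like cells for radiation, and over 0 to 2 for neutrophil-like cells and 0 elsewhere for genotype.

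In macrophage-like cells 7 members were called for radiation and 3 for genotype; these were 3 and 1 with doublets kept, 0 and 0 with at most 5% mitochondrial UMIs, and 4 and 2 without the interferon-led cluster, while DESeq2 called 6 and 5, without Tap1 for radiation (adjusted p = 0.0883). With the unnamed neighbouring clusters added (a setting added once the values had been seen), edgeR's counts were 6 and 2, without Psmb9 for radiation (0.72, adjusted p = 0.054) and B2m for genotype (-0.48, adjusted p = 0.0517). With only the 4 libraries compared they were 7 and 2, without B2m for genotype (-0.45, adjusted p = 0.053). In monocyte-like cells the 2 genotype calls became 1 with at most 5% mitochondrial UMIs and 0 with the 4 libraries of the comparison. Over all kept cells DESeq2 called 4 and 2 members and the fit without a filter 4 and 1, where edgeR had called 0 in both. In the other classes with 0 calls DESeq2 called 2 by genotype in dendritic cell-like and B cell-like, 1 in each comparison in cycling, 1 by genotype in endothelial-like, and 2 and 1 in fibroblast-like cells. Without a filter the counts for radiation and genotype were 1 and 2 in dendritic cell-like, 4 and 2 in cycling, 4 and 3 in endothelial-like and 4 and 3 in fibroblast-like cells, and 1 by genotype in B cell-like cells. RLE scaling left 1 of the 2 interaction calls against NK cell-like cells. The cause was not tested in any of these. With at most 5% mitochondrial UMIs, B cell-like, cycling and fibroblast-like cells gave no value for want of cells. No member called in either comparison changed direction under any of these alternatives.

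The labels do not say whether the replicate numbers pair the libraries, and they were not treated as pairs. Same-numbered libraries correlated in their deviations by 0.029 or less in macrophage-like cells and by 0.074 to 0.174 over all kept cells. A shared day or batch was not tested. With a replicate block the counts were 7 and 2 in macrophage-like cells (B2m for genotype at an adjusted p of 0.0528), 0 and 2 in monocyte-like cells, 2 by genotype in B cell-like, 1 for radiation in fibroblast-like cells and 1 for radiation in the Cd209f cluster (2 without it). Sign changes of uncalled members were followed only over all kept cells and in macrophage-like cells. Among the genotype estimates there, 4 changed sign when a library was left out, none of them called. Over all kept cells they ranged from -0.24 to 0.016 for Tap2, which was also at 0.0031 without RT STING KO replicate 1, and from -0.66 to 0.020 for Nlrc5. In macrophage-like cells they ranged from -0.49 to 0.0046 for Tap2 and from -0.87 to 0.13 for Nlrc5. Each highest value was that without RT WT replicate 1.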
